A study of Mus musculus with 11 samples.

Results

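Semaphorins, plexins and neuropilins form a ligand and receptor system of cell guidance. The genes were chosen by name: 34 of the 39179 rows of the count table carry a mouse symbol that starts with Sema3, Sema4, Sema5, Sema6, Sema7 or Plxn, or is Nrp1 or Nrp2. They comprise 20 semaphorin genes, 9 plexin genes, 2 neuropilin genes and 3 antisense RNA genes named after Plxna4, which encode neither ligand nor receptor. Of these, 32 had a mean of at least 0.5 CPM, counts scaled to a common library total, over all 11 libraries and were tested, among them 19 semaphorins, all 11 receptor genes and 2 antisense RNAs. At the edge of that limit, Plxna4os2 lay inside with a mean of 0.876 CPM and Sema3g outside with 0.401 CPM.

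RNA was sequenced from GFP-positive cells sorted from the V-SVZ, the germinal zone along the lateral ventricles, of CD1/Swiss mice at postnatal day 2. The KO group held 5 libraries of genotype Gsh2-Cre; Zeb2fl/KO, and the Ctrl group held 6 libraries of genotype Gsh2-Cre; Zeb2fl/wt. Both groups carried Gsh2-Cre, 1 floxed Zeb2 allele and the RCE reporter, from which Cre recombination switches on GFP. The KO animals had 1 null allele beside the floxed one and the Ctrl animals 1 wild-type allele. Cre from the Gsh2 promoter acts in progenitors of the ventral forebrain and their offspring, whereas the null allele is present in every cell of a KO animal. Nothing in the labels ties a library to its own animal, and p-values therefore reflect library-to-library spread. The Ctrl libraries did not all come from the same animal or pool, since only some held counts of Y-linked genes. How much of the spread is technical is not known.

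Secreted class 3 semaphorins mostly bind a neuropilin, which holds the ligand while a plexin of the A or D type carries the signal into the cell. Membrane-bound semaphorins of the other classes bind plexins without a neuropilin. In the developing forebrain the system is best known for steering growing axons and for sorting migrating interneurons between the striatum and the cortex.

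Total counts were 6833981 to 13073505 per library. The gene-level count of Zeb2 includes exons outside the deleted part and does not check the genotype: it stood at 213 to 365 CPM in KO libraries and 154 to 280 CPM in Ctrl libraries. All 5 KO libraries and Ctrl 4 and 5 had 0 counts of 4 Y-linked genes, whereas Ctrl 1, 2, 3 and 6 had 763 to 2716, which means that sex, judged by these genes, was unequal between the groups. Library KO 5 stood apart in the choroid plexus gene Ttr, with 204 CPM there and at most 0.837 CPM in every other library. Ctrl 6 stood apart in the markers of oligodendrocyte precursors, whose summed level over 7 of 8 listed genes was 618 to 986 CPM in KO libraries, 824 to 2442 CPM in Ctrl libraries and highest in Ctrl 6. Defining genes of the labelled GABAergic lineage (Dlx1, Dlx2, Gad1, Gad2 and Dcx) were at 308 CPM or more in KO libraries and at 216 CPM or more in Ctrl libraries. Endothelial genes were near 0, with a summed level of 2.70 to 9.36 CPM in KO libraries and 4.29 to 11.5 CPM in Ctrl libraries over 11 genes, and Tek at 0 in all.

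In KO libraries 5 of the 30 tested coding genes rose and none fell: the receptor genes Nrp1 and Plxnc1 and the ligand genes Sema3c, Sema3a and Sema4b. Calls are at an adjusted p of 0.05 in edgeR's quasi-likelihood test over all 15227 genes tested, where 4.14% were called, 2.52% higher and 1.62% lower. The 3 semaphorins were 15.8% of the 19 tested and the 2 receptors 18.2% of 11. The median log2 fold change was 0.03 for the semaphorins, -0.05 for the receptors and -0.02 for all genes tested, with 10 of the 19 semaphorins and 5 of the 11 receptors above 0. A further 8 coding genes had an unadjusted p below 0.05 and did not pass the adjustment. Levels below are CPM after TMM scaling, which corrects library totals for composition. In bulk RNA, fewer cells of a type and less RNA per cell cannot be told apart.

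**Figure D1:**
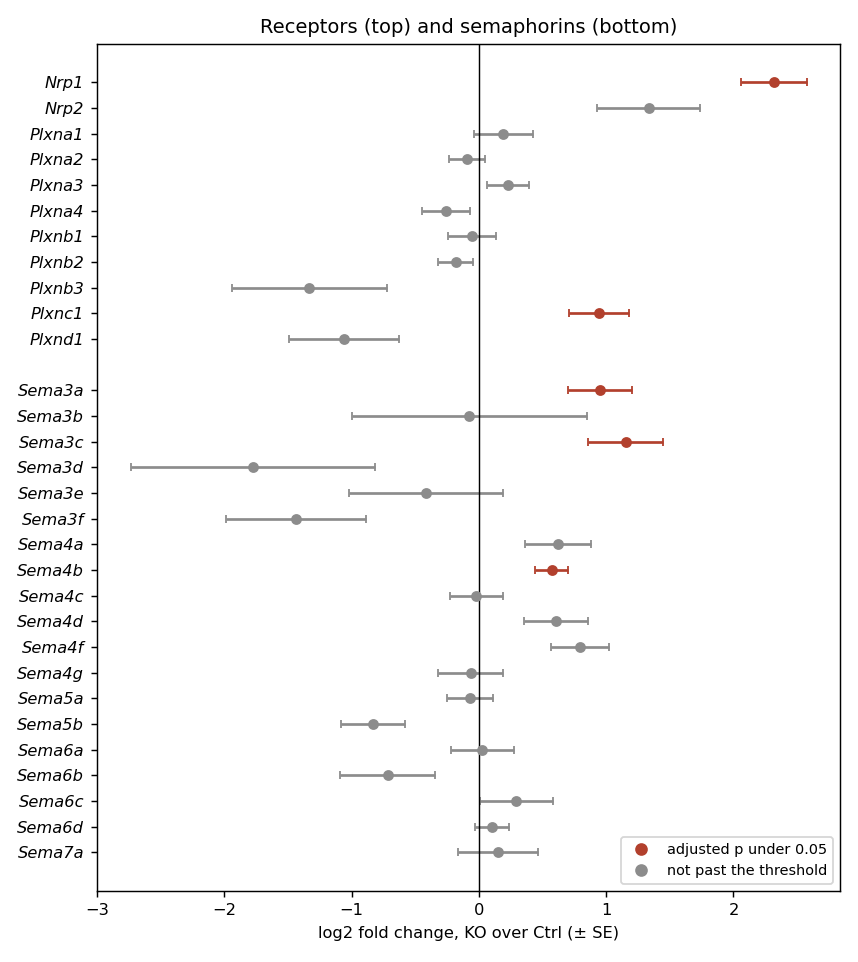
Log2 fold change of KO over Ctrl libraries (horizontal axis, bars are 1 standard error) for the 30 tested coding genes, receptors above and semaphorins below. The 5 genes in red passed an adjusted p of 0.05, with Nrp1 farthest to the right at 2.32.

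The upstream windows of 4 of the genes that rose are shown because ZEB transcription factors bind the sequence CACCT. The windows are from RefSeq on GRCm38.p6, 250 bases before to 50 bases after an annotated start, on the strand of the gene, and capitals mark CACCT or its reverse complement AGGTG.
Nrp1, chr8:128358823-128359122, plus strand: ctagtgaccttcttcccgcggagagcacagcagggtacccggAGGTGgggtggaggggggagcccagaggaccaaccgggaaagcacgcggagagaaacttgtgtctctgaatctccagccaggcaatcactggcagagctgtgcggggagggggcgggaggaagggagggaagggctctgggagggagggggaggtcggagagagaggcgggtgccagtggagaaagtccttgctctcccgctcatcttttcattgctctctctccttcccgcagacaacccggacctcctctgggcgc
Sema4b, chr7:80198338-80198637, plus strand: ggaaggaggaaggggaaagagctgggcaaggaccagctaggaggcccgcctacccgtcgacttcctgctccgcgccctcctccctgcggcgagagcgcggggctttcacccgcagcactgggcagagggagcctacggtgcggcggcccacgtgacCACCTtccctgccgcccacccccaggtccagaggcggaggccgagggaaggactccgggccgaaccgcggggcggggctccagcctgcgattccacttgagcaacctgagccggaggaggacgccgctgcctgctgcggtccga
Sema3c, chr5:17574566-17574865, plus strand: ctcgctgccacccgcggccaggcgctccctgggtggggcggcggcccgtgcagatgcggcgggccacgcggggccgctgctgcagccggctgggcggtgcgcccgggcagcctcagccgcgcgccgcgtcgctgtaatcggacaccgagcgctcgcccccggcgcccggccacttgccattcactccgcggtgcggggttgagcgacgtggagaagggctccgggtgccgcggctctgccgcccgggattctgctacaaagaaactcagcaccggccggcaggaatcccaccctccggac
Plxnc1, chr10:94944796-94945095, minus strand: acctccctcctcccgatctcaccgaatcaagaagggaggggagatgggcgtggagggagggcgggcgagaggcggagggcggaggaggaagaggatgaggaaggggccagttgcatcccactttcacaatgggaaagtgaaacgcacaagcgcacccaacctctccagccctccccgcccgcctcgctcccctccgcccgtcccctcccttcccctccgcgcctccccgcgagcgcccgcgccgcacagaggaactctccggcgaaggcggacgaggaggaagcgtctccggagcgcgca
The first and the second of these windows hold 1 match each, and the others hold none. Windows were found for 26 of the 31 coding genes. The motif, searched on both strands as CACCT and AGGTG, which cannot overlap, was in 20 of the 37 windows of these genes (54.1%) and in 51.9% of all 32851 windows of the table. Counted by gene, 14 of the 26 with a window had it. Among the 5 genes that rose, 2 had it in a window, Sema4b in the second of its 2 windows. The windows not shown for these 5 genes, that of Sema3a and the other of Sema4b, held no match. These are matches of letters in 300 bases and not measured binding.

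Nrp1 (ENSMUSG00000025810, chromosome 8, positions 128358604 to 128503363, plus strand, GRCm38) encodes the neuropilin that binds Sema3a. It stood at 84.2, 73.5, 72.7, 117 and 70.7 CPM in KO libraries 1 to 5, against 9.79, 17.2, 23.4, 8.37, 21.1 and 20.3 CPM in Ctrl libraries 1 to 6. All KO libraries lay far above all Ctrl libraries. The means were 83.5 ± 19.2 CPM in KO libraries (SD, n = 5) and 16.7 ± 6.24 CPM in Ctrl libraries (SD, n = 6), a log2 fold change of 2.32 (SE 0.257, adjusted p = 0.000105), or 4.99-fold. The groups did not overlap for Nrp1 or for 3 more of the 30 coding genes (Plxnc1, Sema3c and Sema4b), where 4.67% of all genes tested did not overlap, 2.74% with KO above Ctrl and 1.93% with KO below.

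Nrp2 (chromosome 1, 62703285 to 62818695), the preferred neuropilin of Sema3f, had 29.3, 29.4, 76.7, 34.2 and 24.1 CPM in KO libraries, against 11.7, 5.38, 17.1, 11.9, 11.5 and 34.2 CPM in Ctrl libraries. The groups overlapped, because Ctrl 6 was as high as KO 4. The log2 fold change of 1.33 (SE 0.405) did not pass (adjusted p = 0.0884). Of the 11 fits without 1 library it passed only in that without Ctrl 6 (1.74, adjusted p = 0.0107). It was at its lowest value without KO 3 (0.93, adjusted p = 0.266).

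Per kilobase of exon, both neuropilins together reached 9.25 to 14.8 CPM in KO libraries and 1.86 to 4.96 CPM in Ctrl libraries. Their summed level per 100 CPM per kilobase of the 4 Plxna genes was 25.4 to 49.3 in KO libraries and 5.99 to 12.7 in Ctrl libraries, so these ranges were separate. Nrp1 made up 53.4% to 80.5% of the neuropilin level per kilobase in KO libraries and 41.8% to 79.5% in Ctrl libraries, ranges that overlapped. These sums contain Nrp1 and are given as a description.

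**Figure D2:**
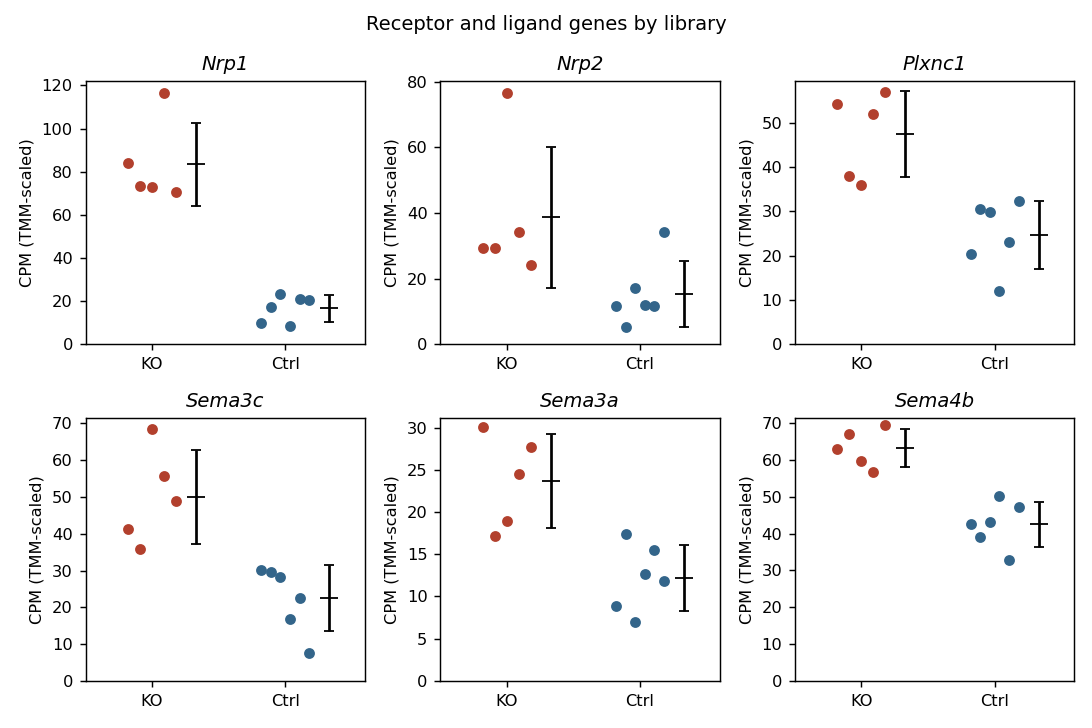
TMM-scaled CPM (vertical axes from 0) of 6 genes in each library, KO on the left in red and Ctrl on the right in blue, with the mean and SD beside the points. Nrp1, Plxnc1, Sema3c and Sema4b show no overlap, Sema3a overlaps slightly, and Nrp2 spans a wide range in both groups.

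Plxnc1 (chromosome 10, 94790866 to 94944835, minus strand), which encodes the plexin that binds Sema7a, was the only plexin gene of 9 that passed. It had 54.2, 37.9, 36.0, 52.0 and 57.0 CPM in KO libraries, against 20.3, 30.4, 29.9, 11.9, 23.0 and 32.3 CPM in Ctrl libraries. All KO libraries lay above all Ctrl libraries, though KO 3 and Ctrl 6 were close. The log2 fold change was 0.94 (SE 0.234, adjusted p = 0.0355). The call was lost without KO 1, KO 4, KO 5, Ctrl 1 or Ctrl 5. With the Y-linked level as a covariate it was kept (1.43, adjusted p = 0.0454). Among the libraries without Y-linked counts the value was 1.45 (adjusted p = 0.0549). Plxnc1 made up 3.81% to 5.88% of the summed plexin level per kilobase in KO libraries and 1.22% to 2.99% in Ctrl libraries. Its ligand gene Sema7a, at 21.8 ± 10.7 CPM in KO libraries and 19.6 ± 6.47 CPM in Ctrl libraries, had a log2 fold change of 0.15 (adjusted p = 0.87).

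The A-type plexins, the signalling partners of the neuropilins, did not pass in either direction. Plxna3, on the X chromosome and the highest of the 4 per kilobase, had 138, 119, 138, 88.0 and 112 CPM in KO libraries, against 87.3, 105, 110, 77.5, 87.5 and 143 CPM in Ctrl libraries. The groups overlapped over most of their range (log2 fold change 0.23, SE 0.165, adjusted p = 0.546). Plxna1, Plxna2 and Plxna4 had log2 fold changes of 0.19, -0.09 and -0.26, with adjusted p from 0.545 to 0.806. The summed Plxna level per kilobase was 30.0 to 40.4 CPM in KO libraries and 28.2 to 39.2 CPM in Ctrl libraries.

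Plxnb2, a receptor of class 4 semaphorins, was the most abundant gene of the set per kilobase. It stood at 62.9 ± 11.9 CPM per kilobase in KO libraries and 71.3 ± 11.6 in Ctrl libraries, which was 46.1% to 59.0% and 51.8% to 63.3% of the summed plexin level. In CPM it had 392, 483, 442, 471 and 638 in KO libraries, against 544, 487, 589, 574, 424 and 686 in Ctrl libraries. The groups overlapped (log2 fold change -0.18, SE 0.137, adjusted p = 0.557). The next receptors in order per kilobase were Plxna3, Plxnb1 and Plxna2, at 13.9, 13.1 and 11.01 CPM per kilobase over all libraries, and these 3 lay within each other's spread.

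Plxnd1, the receptor of Sema3e and a partner of the neuropilins for Sema3c, had 4.68, 4.30, 5.13, 4.27 and 16.6 CPM in KO libraries, against 8.45, 23.9, 7.98, 14.6, 22.8 and 9.59 CPM in Ctrl libraries. KO libraries 1 to 4 lay below every Ctrl library and KO 5 among them. The log2 fold change of -1.06 (SE 0.433) did not pass (adjusted p = 0.226), whereas without KO 5 it was -1.67 (adjusted p = 0.0198). In the other 10 fits without 1 library Plxnd1 did not pass (adjusted p up to 0.388). KO 5 is the library with Ttr at 204 CPM. Over the 7 choroid plexus genes the summed level was 4.42 to 214 CPM in KO libraries and 2.82 to 12.2 CPM in Ctrl libraries. That sum was highest in KO 5, where most of it was Ttr. Folr1 was also highest in KO 5 (4.73 CPM), and Otx2 was at 3.98 CPM there, close to KO 2 (3.9 CPM). Kcne2, Kl and Aqp1 were at 0 in KO 5, and Clic6 was at 1.91 CPM, below Ctrl 5 (8.75 CPM). The part of choroid plexus cells in the Plxnd1 value was not tested. Plxnb3, the other plexin gene on the X chromosome, averaged 1.67 ± 1.37 CPM in KO libraries and 4.21 ± 2.75 CPM in Ctrl libraries and did not pass (adjusted p = 0.285).

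Among the ligands, 4 of the 7 class 3 genes lie on chromosome 5 (Sema3a, Sema3c, Sema3d and Sema3e), and 2 of these passed. Sema3c (chromosome 5, 17574281 to 17730268), a secreted ligand of both neuropilins, had 41.4, 35.9, 68.5, 55.7 and 49.0 CPM in KO libraries, against 30.2, 29.6, 28.4, 16.8, 22.6 and 7.47 CPM in Ctrl libraries. All KO libraries were above all Ctrl libraries, and Ctrl 6 was lowest. Its log2 fold change was 1.16 (SE 0.295, adjusted p = 0.0397). The call was lost without KO 1, KO 3, KO 4, KO 5, Ctrl 3, Ctrl 4 or Ctrl 5, with values between 1.02 and 1.23 in those fits. It was also lost with no composition scaling (1.135, adjusted p = 0.0507) and with the Y-linked level as a covariate (1.42, adjusted p = 0.186). Among the libraries without Y-linked counts it was lost too (1.35, adjusted p = 0.051).

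Sema3a (chromosome 5, 13125414 to 13602565), the repellent ligand of Nrp1, had 30.0, 17.1, 19.0, 24.5 and 27.7 CPM in KO libraries, against 8.90, 17.4, 6.995, 12.7, 15.5 and 11.8 CPM in Ctrl libraries. KO 2 was just below Ctrl 2, the single overlap. Sema3a had a log2 fold change of 0.95 (SE 0.249, adjusted p = 0.0457). This call was lost in 8 of the 11 fits without 1 library (all but those without KO 2, Ctrl 2 or Ctrl 5), with values from 0.83 to 1.08 over the 11 fits, and with no composition scaling (0.93, adjusted p = 0.0567). With the Y-linked level as a covariate the value was 0.78 (adjusted p = 0.461), and among the libraries without Y-linked counts it was 0.76 (adjusted p = 0.342). Their chromosomal neighbours Sema3d and Sema3e were scarce, averaging 0.980 ± 1.19 and 1.83 ± 0.794 CPM in KO libraries and 3.30 ± 3.12 and 2.44 ± 2.04 CPM in Ctrl libraries, and did not pass (adjusted p = 0.38 and 0.797).

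Sema3f, the class 3 ligand that signals mainly through Nrp2, had 1.92, 1.2, 1.85, 0.974 and 8.54 CPM in KO libraries, against 8.75, 4.34, 11.5, 3.56, 7.98 and 11.2 CPM in Ctrl libraries. As for Plxnd1, KO libraries 1 to 4 were below every Ctrl library and KO 5 was not. Over all libraries the log2 fold change was -1.44 (SE 0.55, adjusted p = 0.188), and without KO 5 it was -2.41 (adjusted p = 0.00576). In the other 10 fits without 1 library Sema3f did not pass (adjusted p up to 0.341). Sema3f made up 1.87% to 13.4% of the summed class 3 level per kilobase in KO libraries, with KO 5 highest, and 12.3% to 33.5% in Ctrl libraries. Sema3c made up 56.0% to 77.8% of it in KO libraries and 16.2% to 63.5% in Ctrl libraries. The summed class 3 level itself was 7.62 to 12.3 CPM per kilobase in KO libraries and 5.31 to 7.71 in Ctrl libraries.

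Sema3b averaged 2.36 ± 2.69 CPM in KO libraries and 2.48 ± 2.09 CPM in Ctrl libraries (adjusted p = 0.98). Sema3g, which was too scarce to test, had 17, 24, 6, 0 and 1 counts in KO libraries and 0 counts in each Ctrl library, where a floor of 3 counts is 0.241 to 0.445 CPM. Its counts came mainly from KO 1 and KO 2.

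**Figure D3:**
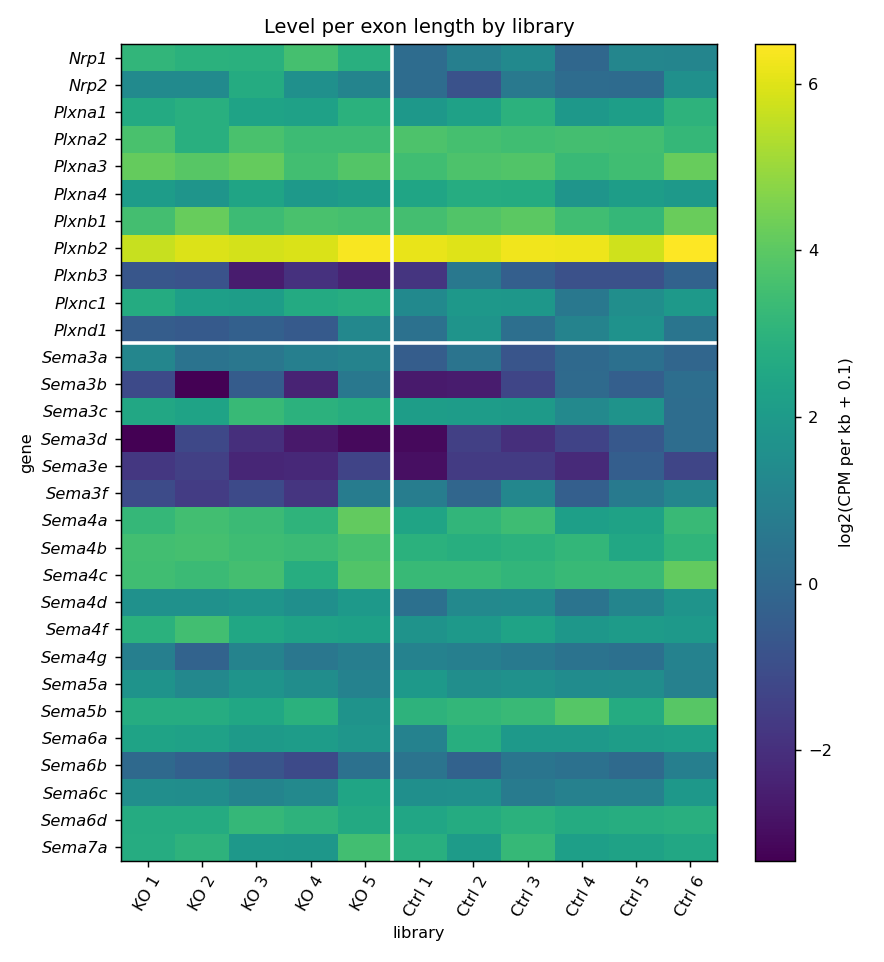
Level per exon length, log2(CPM per kb + 0.1), of the 30 tested coding genes (rows, receptors above the white line) in each library (columns, KO left of the white line). Plxnb2 is brightest in all libraries, class 3 semaphorins other than Sema3c are mostly dark, and Nrp1 is brighter in the KO columns.

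Class 4 semaphorins are membrane proteins that bind mainly B-type plexins. Sema4b (chromosome 7, 80186841 to 80226527) was the 1 of 6 that passed, with 63.0, 67.1, 59.7, 56.8 and 69.6 CPM in KO libraries, against 42.6, 39.2, 43.2, 50.3, 32.8 and 47.1 CPM in Ctrl libraries. The groups were separate, with little spread in either (log2 fold change 0.57, SE 0.132, adjusted p = 0.0243). The call was lost without KO 1, KO 2, KO 5 or Ctrl 2, with values from 0.51 to 0.62 over the 11 fits without 1 library. It was also lost with the Y-linked level as a covariate (0.59, adjusted p = 0.244) and among the libraries without Y-linked counts (0.61, adjusted p = 0.257).

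Sema4f, Sema4a and Sema4d were at 0.79, 0.62 and 0.61 on the log2 scale, short of the threshold (adjusted p = 0.0702, 0.235 and 0.238). Sema4f had 40.1, 59.4, 29.8, 26.1 and 24.7 CPM in KO libraries and 16.8, 20.3, 26.8, 18.7, 21.7 and 20.2 CPM in Ctrl libraries. KO 4 and KO 5 lay within the Ctrl range. Of the 11 fits without 1 library Sema4f passed only in that without KO 5 (0.89, adjusted p = 0.0448). In the other 10 the adjusted p was up to 0.176. Sema4c, a ligand of Plxnb2 and the highest semaphorin gene per kilobase, had 49.8, 46.0, 52.9, 31.4 and 64.4 CPM in KO libraries, against 44.6, 44.3, 39.4, 44.5, 44.9 and 79.3 CPM in Ctrl libraries. Its groups overlapped throughout (log2 fold change -0.02, SE 0.208, adjusted p = 0.978). Sema4g was at -0.07 (adjusted p = 0.935). Per kilobase Sema4c, Sema4b and Sema4a lay at 10.7, 9.20 and 9.06 CPM over all libraries, within each other's spread.

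Class 5 semaphorins carry thrombospondin repeats outside the cell. Sema5b had 46.4, 47.2, 39.5, 53.0 and 22.4 CPM in KO libraries, against 56.5, 63.2, 69.8, 105, 45.0 and 106 CPM in Ctrl libraries. Only Ctrl 5 lay within the KO range. The log2 fold change of -0.83 (SE 0.253) did not pass (adjusted p = 0.0893). Of the 11 fits without 1 library it passed only in that without Ctrl 5 (-0.94, adjusted p = 0.0447). In the other 10 the adjusted p was up to 0.181. Sema5a was at -0.07 (adjusted p = 0.902).

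No class 6 or class 7 gene passed. Sema6d, a ligand of Plxna1 and the highest of class 6 per kilobase, had 67.5, 67.9, 95.9, 83.5 and 64.3 CPM in KO libraries, against 58.3, 68.4, 80.6, 67.1, 72.0 and 76.2 CPM in Ctrl libraries (log2 fold change 0.11, SE 0.135, adjusted p = 0.768). Sema6a, a ligand of Plxna2 and Plxna4, averaged 37.6 ± 5.80 CPM in KO libraries and 36.7 ± 14.4 CPM in Ctrl libraries (log2 fold change 0.03). Sema6b and Sema6c were at -0.72 and 0.29 (adjusted p = 0.359 and 0.679). Sema7a had 21.7, 26.2, 11.9, 11.8 and 37.2 CPM in KO libraries, against 23.4, 13.2, 30.6, 14.9, 16.3 and 19.2 CPM in Ctrl libraries.

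Other genes of the pathway came from a list of 69 co-receptors, effectors and further neuropilin ligands, of which 61 were tested, 4 rose and 2 fell, or 9.84% against the 4.14% of all genes. The median log2 fold change of the list was -0.0046, and -0.02 for all genes. Met, the receptor tyrosine kinase that couples to B-type plexins, had 18.4, 18.9, 18.2, 17.8 and 9.21 CPM in KO libraries, against 0, 2.41, 0.591, 2.61, 0.665 and 0.277 CPM in Ctrl libraries. Every KO library was above every Ctrl library (log2 fold change 3.86, SE 0.589, adjusted p = 0.00139). Mical2, a relative of the oxidase that disassembles actin below A-type plexins, averaged 12.8 ± 3.33 CPM in KO libraries and 3.45 ± 1.61 CPM in Ctrl libraries (log2 fold change 1.89, adjusted p = 0.00576).

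Nrcam, an adhesion molecule that associates with Nrp2, rose to 234 ± 19.2 CPM in KO libraries, against 133 ± 30.7 CPM in Ctrl libraries (log2 fold change 0.81, adjusted p = 0.00523). Pak3, a kinase activated by Rac and Cdc42, rose with 239 ± 10.4 CPM in KO libraries and 160 ± 30.3 CPM in Ctrl libraries (0.58, adjusted p = 0.0157). Rnd3 fell to 469 ± 52.7 CPM in KO libraries, against 706 ± 157 CPM in Ctrl libraries (-0.59, adjusted p = 0.0316), and lost the call without KO 1, KO 3, KO 4, KO 5, Ctrl 1 or Ctrl 4. Dpysl3, which encodes a collapsin response mediator protein, stood at 1409 ± 99.2 CPM in KO libraries and 1721 ± 64.8 CPM in Ctrl libraries (-0.29, adjusted p = 0.0378) and, of the 11 fits without 1 library, kept its call in those without KO 2 or Ctrl 6. All 6 genes were separate between groups, and none of the 6 passed with the Y-linked level as a covariate (adjusted p from 0.0699 to 0.306). Under that covariate the log2 fold changes were 3.48 for Met, 2.25 for Mical2, 0.74 for Nrcam, 0.66 for Pak3, -0.77 for Rnd3 and -0.28 for Dpysl3.

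**Figure D4:**
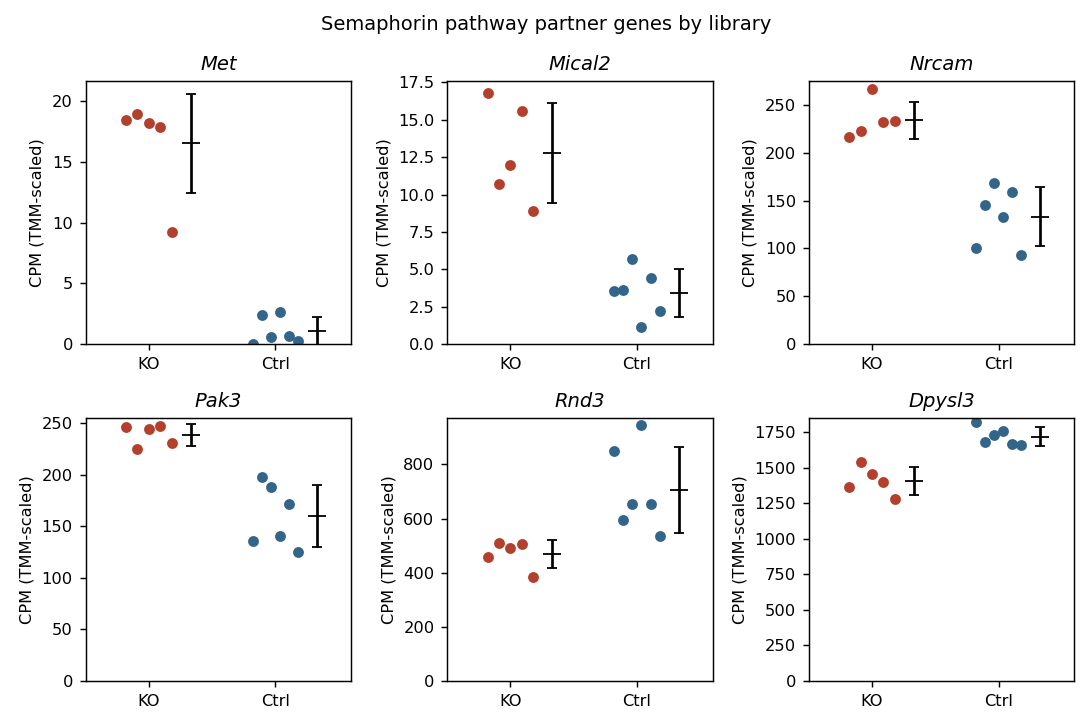
TMM-scaled CPM (vertical axes from 0) of the 6 pathway partner genes that passed, KO on the left in red and Ctrl on the right in blue, with the mean and SD beside the points. Met and Mical2 are several-fold higher in KO libraries, and Dpysl3 differs little in size with a narrow spread.

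The partners with the highest levels per kilobase that did not pass were Dpysl2, Crmp1, Dpysl5 and Cfl1, the first 3 of them genes of collapsin response mediator proteins and the last the actin-severing protein cofilin. Their log2 fold changes were -0.38, -0.17, 0.12 and -0.40 (adjusted p = 0.208, 0.498, 0.672 and 0.0841). Exons of Cfl1 overlap Snx32 on the opposite strand, and the counting's strand setting is not given. The growth factor Vegfa, another ligand of Nrp1, averaged 0.518 CPM in KO libraries and 1.01 CPM in Ctrl libraries (adjusted p = 0.524), and the gene of its receptor Kdr averaged 0.188 CPM in KO libraries and 1.08 CPM in Ctrl libraries (adjusted p = 0.453), with 50 of the Ctrl counts in Ctrl 6.

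Markers of interneurons and of striatal projection neurons also differed between the groups. Over all genes tested 4.14% were called. In the other marker lists 1 of 7 oligodendrocyte precursor genes was lower, 1 of 11 GABAergic lineage genes was higher and no other gene was called. Of 10 genes of interneurons of the medial ganglionic eminence and cortex 5 were higher and 1 was lower. Their summed level was 2594 to 3690 CPM in KO libraries and 447 to 777 CPM in Ctrl libraries. Of 12 striatal projection neuron genes 1 was higher and 5 were lower, with 427 to 639 CPM in KO libraries and 745 to 2170 CPM in Ctrl libraries. No gene of either list was at 0 throughout. Their part in the values of Nrp1, Met and the other genes above was not tested.

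The alternatives set the 5 genes apart. Nrp1 passed under all 25 of them, with log2 fold changes from 2.17 to 2.52 and adjusted p of at most 0.0086, also among the 7 libraries without Y-linked counts. Plxnc1 and Sema4b passed under 17 each, Sema3c under 14 and Sema3a under 11. All 5 kept their sign under all 25.

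**Figure D5:**
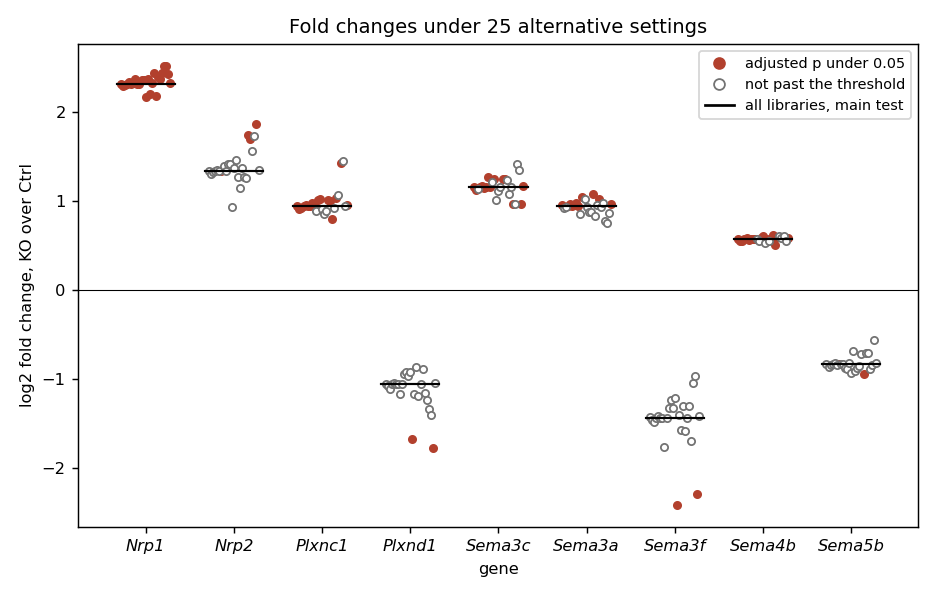
Log2 fold change of KO over Ctrl (vertical axis) of 9 genes under 25 alternative settings (points) and in the main test (black line), filled red where the adjusted p was under 0.05. All points of Nrp1 are red, whereas Plxnd1 and Sema3f are red at their 2 lowest points only, both of which leave out KO 5.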

How the data were processed

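RNA-seq counts per gene were deposited by the authors as 1 table of raw counts, made with TopHat2 2.0.13 and featureCounts 1.4.6 on mm10 (GRCm38), per the submitters' processing notes. Which annotation release, strand setting and rule for multi-mapping reads applied is not given in the sources used here. Rows without a symbol (1572, at most 0.326% of a library's counts) could not enter the members or lists. They stayed in the library totals and, at a mean of at least 0.5 CPM, in the test. Genes with a mean of at least 0.5 CPM over 11 libraries were tested in edgeR 4.0.16 (R 4.3.3): TMM scaling, robust quasi-likelihood fit, KO over Ctrl, no covariate, Benjamini-Hochberg adjustment over 15227 genes, threshold 0.05. The printed CPM are TMM-scaled, and levels per kilobase use union exon length of GENCODE M21. On simulated data with 200 changed genes among 15227, 45% of 2-fold and 74% of 4-fold changes were recovered, and 6.3% of calls were false. Full values were given, by rule, for members that passed and the member of each family with the highest level per kilobase, and for partners that passed (up to 10) and the 4 highest of the others. Nrp2, Sema3f, Sema3g, Sema4f, Kdr and Vegfa were added after their values were seen. The members and lists were chosen with earlier results of these data known. Alternatives were other scalings, filters and tools (limma 3.58.1, DESeq2 1.42.0), single libraries left out, and sex. Floors cover counting error only.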

Additional observations from a re-analysis of the deposited data

Results flagged for a closer look

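In 7 of 72 gene and group combinations examined, 1 library stood far from the rest of its group by Dixon's criterion, and chance gives about 1 in 20. In KO 5, Plxnd1 had 16.6 CPM (next highest KO library 5.13 CPM), Sema3f 8.54 CPM (next 1.92 CPM), Sema6c 31.3 CPM (next 16.4 CPM) and Met 9.21 CPM, the lowest of the KO libraries (next 17.8 CPM). KO 5 also had 204 CPM of Ttr and 12.2% of its counts in Gm42418, against 6.25% to 9.79% in the other libraries. The part of these features in the 4 values was not tested.

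Nrp2 had 76.7 CPM in KO 3 (next highest KO library 34.2 CPM), and Plxnb1 had 175 CPM in KO 2 (next 120 CPM). Sema4c had 79.3 CPM in Ctrl 6 (next highest Ctrl library 44.9 CPM), which was also highest in the oligodendrocyte precursor list at 2442 CPM and in the mural list at 252 CPM, of which 190 CPM were Cspg4, a gene of both lists.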

How the results depend on the processing

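Of 2309 gene and setting values over 25 alternatives, 2102 kept direction and side of the threshold, 69 lost the call, 20 gained it and 118, in 28 genes, changed sign with no call in either test (adjusted p of at least 0.485). The 3 semaphorin calls became 1 with no composition scaling, 5 with DESeq2 (4 higher, 1 lower) and 0 with the Y-linked level as a covariate or among libraries without Y-linked counts (7 at an unadjusted p under 0.05 in edgeR in either). Without single libraries they ranged from 0 (without KO 1, 8 at an unadjusted p under 0.05) to 3. The 2 receptor calls became 1 among libraries without Y-linked counts and ranged from 1 to 3 without single libraries. The 6 partner calls became 0 with the Y-linked covariate (11 at an unadjusted p under 0.05) and 3 without Y-linked counts. All-gene calls, 630 in the main test, were 1134 with DESeq2, 166 with the covariate, 205 without Y-linked counts, and 392 (without KO 3) to 634 without single libraries. Fewer libraries or an added term leave fewer residual degrees of freedom, and the cause of each change was not tested. Replicate numbers did not pair the libraries (correlation of deviations -0.116 to 0.022 over 5 pairs). With the replicate block, semaphorin calls were 0 (8 at an unadjusted p under 0.05) and all-gene calls 395. Members changed sign as follows on the log2 scale. With the Y-linked covariate and among libraries without Y-linked counts, the values were 0.0596 and 0.14 for Sema4c, 0.0198 and 0.0089 for Sema5a, 0.35 and 0.38 for Sema4g, 0.16 and 0.13 for Plxna4, 0.63 and 0.67 for Plxna4os2, and 0.33 and 0.37 for Plxnb1. With the replicate block they were 0.13 for Sema4c and 0.0632 for Plxnb1, and without KO 5 and Ctrl 6 together 0.0379 for Sema4c, -0.15 for Sema7a and 0.0824 for Plxnb1. Without single libraries the ranges of members that changed sign were -0.15 to 0.16 for Sema4c, -0.16 to 0.0195 for Plxna2, -0.16 to 0.0347 for Sema5a, -0.12 to 0.24 for Sema6a, -0.18 to 0.10 for Sema4g, -0.0127 to 0.44 for Sema6c, -0.64 to 0.10 for Sema3e, -1.85 to 0.0127 for Plxna4os1, -0.14 to 0.32 for Sema7a, -0.97 to 0.27 for Sema3b and -0.21 to 0.0601 for Plxnb1.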

Other observations

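The antisense genes Plxna4os1 and Plxna4os2 had log2 fold changes of -0.88 (SE 1.13, adjusted p = 0.768) and -1.11 (SE 1.05, adjusted p = 0.667). Plxna4os3 was too scarce to test, with a mean of 0.0735 CPM, and 110 of its 403 exonic bases overlap Plxna4 on the opposite strand.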
